A study of Homo sapiens with 6 samples.

Results

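The CD300 genes encode immunoglobulin-domain receptors of the myeloid cell surface. CD300LB and the rest of the family were followed here in NB4 cells, an established line of acute promyelocytic leukemia. The members were chosen by name as the 7 CD300 genes, CD300LB, CD300LF, CD300A, CD300C, CD300E, CD300LD and CD300LG, out of 52992 genes with a matched transcript. CD300LB was picked because it was already known to be higher in these ARID1A-guide samples than in the controls, so its differences from the controls are given as a description, with no p-value. The other members were taken for their family name.

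All 6 samples were NB4 cells that carried Cas9 and an inducible single guide RNA (sgRNA), sorted for the fluorescent reporters of both vectors and treated with doxycycline at 1 µg/ml for 7 days before a culture interval without it. In the 2 LacZ samples, labelled wild type, the guide targeted a bacterial gene that human cells lack. In the 2 sg1 and the 2 sg5 samples, labelled ARID1A-deficient, separate guides targeted ARID1A, the gene of a large subunit of SWI/SNF, a complex that moves nucleosomes. The cells were sorted populations of a single cell line, with no cloning step described, and the labels do not say whether the 2 samples of a group were separate cultures, so p-values measure the spread between these samples, which may be technical.

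CD300 receptors share a single extracellular domain of the immunoglobulin type and differ in their tails. CD300A and CD300LF carry inhibitory tyrosine motifs (ITIMs) that recruit phosphatases. The other leukocyte members have short tails and signal through partner chains with activating motifs (ITAMs), such as TYROBP and FCER1G, which engage the kinase SYK. Several members bind phosphatidylserine or other lipids exposed by dying cells. CD300LB is an activating receptor that pairs with TYROBP, can also engage GRB2 through its own tail, and has been described as a partner of the lipopolysaccharide receptor TLR4.

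Each sample held between 46131178 and 54843745 estimated counts, and 18514 genes passed the low-count filter. ARID1A itself, in CPM, read counts scaled to the library size with TMM factors, was at 155.0 and 190.7 in LacZ, 211 and 191.1 with sg1, and 123.7 and 145.1 with sg5. The sg1 samples were not below the controls. Both sg5 samples were, a pattern found in 21.9% of all genes tested. Neither difference passed the test (edgeR adjusted p = 0.993 and 0.661). Small edits made by Cas9 need not lower a transcript, and the edit itself was not measured in these files. ARID1A mRNA therefore did not check the labels, and the groups are called by their guide. By immunoblot, the study reported loss of ARID1A protein after doxycycline in NB4 cells that carried ARID1A guides. On the first principal component, which held 34.4% of the variance, sg1 replicate 1 (34.3) and sg5 replicate 2 (46.8) stood apart from the other 4 samples (-30.3 to -11.3). Differences of CD300 genes, of their neighbours on the chromosome and of some signaling genes are also given without those 2 samples. For the other genes they are not. Of the 8 promyelocyte markers read here, MPO, the granule peroxidase, was at 13430 to 16830 CPM. PRTN3 was at 294.4 to 599.6, AZU1 at 159.8 to 217.4, CTSG at 57.0 to 92.9 and MS4A3 at 78.5 to 107.8. CD33 was at 69.0 to 83.2 and CFD at 16.6 to 27.4, and ELANE alone was near 0, at 0.021 to 0.171.

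Of the 7 genes, 6 lie in a cluster of 246.6 kb on chromosome 17 (GRCh38, chr17:74466399-74712978, GENCODE 29), and CD300LG lies 30.6 Mb away on the same chromosome. CD300A is the only cluster member on the plus strand. CD300LB occupies chr17:74521174-74531474 on the minus strand, between CD300A and CD300C. The 250 bases upstream of its RefSeq start (GRCh38.p14, chr17:74531476-74531725, minus strand, written 5′ to 3′) are shown because this gene carries the main difference. Capitals mark 2 of the motifs searched.

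CD300LB: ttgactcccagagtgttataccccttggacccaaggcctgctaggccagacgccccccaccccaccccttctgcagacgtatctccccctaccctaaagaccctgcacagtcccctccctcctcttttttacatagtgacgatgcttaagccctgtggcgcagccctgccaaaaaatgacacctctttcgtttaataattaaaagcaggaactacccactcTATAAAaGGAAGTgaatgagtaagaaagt

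The window held TATAAA, the TATA box letters, 23 bases before the start and GGAAGT, the letters of an ETS site, 16 bases before it, with no overlap between them. TATAAA was present in 10.7% and GGAAGT in 19.5% of 35116 promoter windows of 250 bases, searched on both strands. TGTGGT for RUNX factors, AGATAA for GATA factors and TTGCNNAA for C/EBP factors were not found in these letters, and 11%, 9.17% and 9.05% of windows held them. The GC content of the window was 50.4%, against a median of 58.0%. Of the 7 members, 2 had an entry in the promoter table, and a match is a run of letters, not a bound site.

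CD300LB, the activating receptor, was at 7.12 and 7.62 CPM in LacZ. It was at 19.0 and 15.8 CPM in sg1 and at 16.1 and 18.9 CPM in sg5. Every ARID1A-guide sample was above both controls, and the 2 groups did not overlap with LacZ. This is the contrast the gene was chosen on. Over all genes tested, 16.7% were higher without overlap for sg1, 20.2% for sg5 and 9.72% for both guides joined. In bulk samples, more cells of a type and more RNA per cell cannot be told apart. The raw estimated counts were 375 and 384 in LacZ, 960 and 702 with sg1, and 753 and 954 with sg5, and these sums were within 0.0004 of whole numbers, so that almost no read was divided with another gene. The fitted difference was 2.36-fold for sg1 (log2 1.24 ± 0.17 SE, 95% interval 1.81 to 3.08-fold) and 2.37-fold for sg5 (log2 1.24 ± 0.17 SE, 95% interval 1.81 to 3.10-fold). For the 4 ARID1A-guide samples joined it was 2.37-fold (log2 1.24 ± 0.15 SE, 95% interval 1.86 to 3.01-fold).

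**Figure D1:**
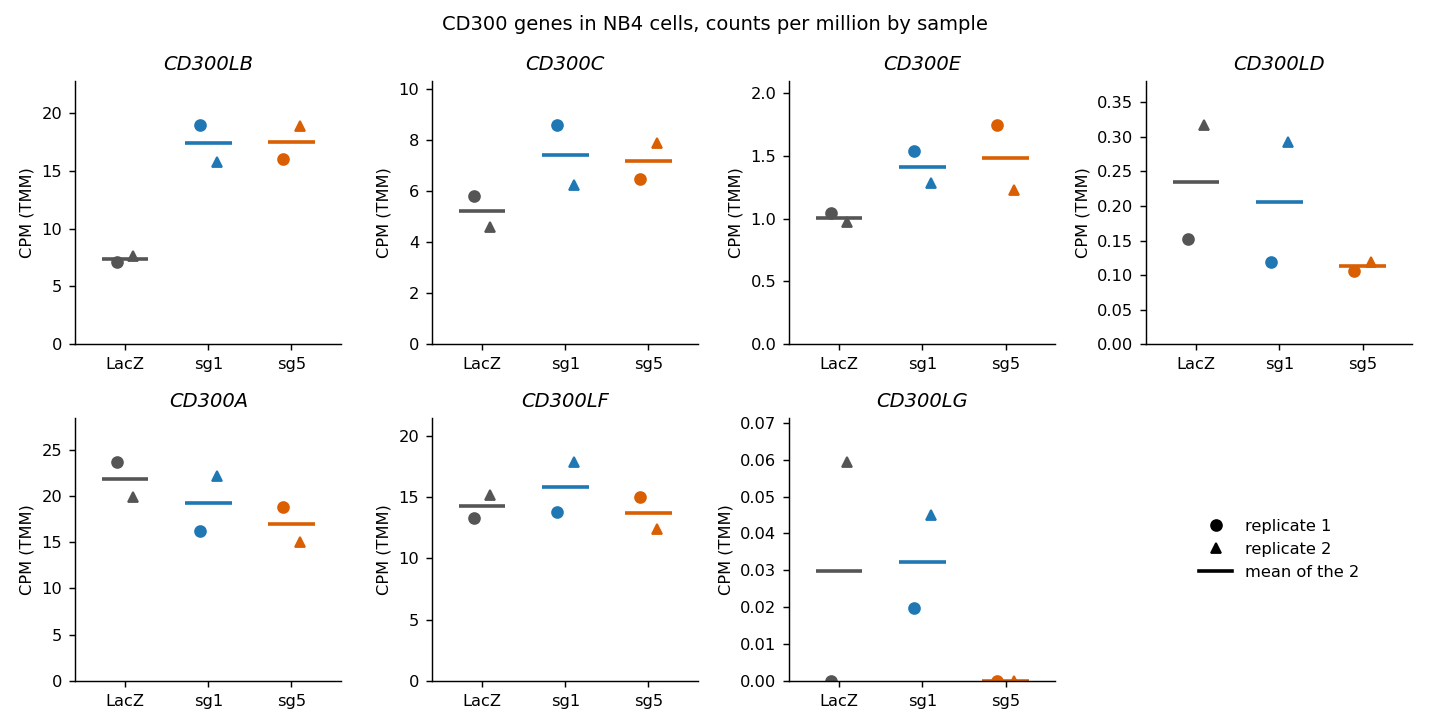
CPM (TMM-scaled) of each CD300 gene in the 2 LacZ, 2 sg1 and 2 sg5 samples, with circles for replicate 1, triangles for replicate 2 and a line at the mean of the 2; each panel has its own axis from 0. CD300LB stood at 15.8 to 19.0 in the ARID1A-guide samples and at 7.12 and 7.62 in LacZ, and the CD300LF groups overlapped. For CD300A the sg1 samples overlapped LacZ while both sg5 samples were below it, as in 21.9% of all genes tested.

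For each guide the replicate set apart by the first component had the higher CD300LB level, 19.0 against 15.8 CPM for sg1 and 18.9 against 16.1 CPM for sg5. With those 2 samples left out the log2 difference was 1.09 for sg1, 1.12 for sg5 and 1.11 joined. Between the guides CD300LB did not differ by test (sg1 minus sg5 log2 -0.01 ± 0.17 SE, 95% interval -0.38 to 0.37, edgeR adjusted p = 1.00). That contrast had no part in the choice of the gene. As sg1 over sg5 the interval ran from 0.768-fold to 1.29-fold, which leaves room for a difference in favour of either guide.

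By the edgeR test at a false discovery rate (FDR) of 0.1, 0 of the 6 tested members were called for sg1, where 0.0378% of all genes tested were called. For sg5 1 member was called, where the share of all genes was 0.0972%, and joined it was 1, where the share was 0.167%. The member was CD300LB both times, the contrast is the one it was chosen on, and nothing is read from these counts. DESeq2, run as an alternative, called 1 member in each contrast with LacZ, again CD300LB, with 0.742%, 1.35% and 1.81% of all genes called for sg1, sg5 and joined. For sg1 against sg5, 0 members were called by either tool, beside 0.0054% of all genes by edgeR and 0.027% by DESeq2, and 0 of the 5 members other than CD300LB had an unadjusted p under 0.05. Leaving out LacZ replicate 1 or LacZ replicate 2 brought the member count to 0 for sg5 and joined, and leaving out sg5 replicate 2 brought it to 0 for sg5. Leaving out sg1 replicate 2, sg5 replicate 1 or sg5 replicate 2 brought it to 1 for sg1. CD300LB's log2 difference stayed between 1.10 and 1.37 in all of these fits.

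CD300LB has 2 annotated transcripts, and both were in the count tables. CD300LB-202 has 4 exons and 2286 exonic bases, of which 1727 are found only in it and form a run at the 3′ end of the gene, chr17:74521174-74522900. CD300LB-201 has 3 exons and 993 exonic bases, of which 434 are its own. CD300LB-202 took 356.4 and 356.2 estimated counts in LacZ, 930.5 and 678.1 with sg1, and 727.2 and 866.8 with sg5, which was 90.9% to 96.9% of the gene. CD300LB-201 took 18.6 and 27.8 counts in LacZ, 29.5 and 23.9 with sg1, and 25.8 and 87.2 with sg5. The sg5 replicate 2 value stood above the other 5. The higher gene level in the ARID1A-guide samples was therefore mostly counted on CD300LB-202, and the division between the transcripts is an estimate of the quantification model over the 559 bases they share.

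CD300C and CD300E are activating receptors of the same cluster. CD300C, which pairs with FCER1G, was at 5.83 and 4.60 CPM in LacZ, 8.60 and 6.26 with sg1, and 6.48 and 7.89 with sg5. CD300E, a monocyte receptor that pairs with TYROBP, was at 1.04 and 0.972 CPM in LacZ, 1.54 and 1.28 with sg1, and 1.75 and 1.23 with sg5. In both genes each ARID1A-guide sample was above both LacZ samples, though the margin was small beside the spread within a group. These were 2 of the 5 tested members other than CD300LB, and 9.72% of all genes tested had all 4 ARID1A-guide samples above both controls. The joined log2 difference was 0.49 ± 0.21 SE for CD300C (95% interval 0.02 to 0.96, unadjusted p = 0.0443, edgeR adjusted p = 0.680). It was 0.52 ± 0.27 SE for CD300E (95% interval -0.09 to 1.14, edgeR adjusted p = 0.742). Neither passed the test, nor did they for either guide alone.

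For CD300C, too, the 2 samples apart on the first component were the highest, and without them its joined log2 difference was 0.29, while that of CD300E was 0.57. CD300E counts were low, 49.2 to 82.1 per sample. Its sums were up to 0.473 from a whole number, so that some reads were divided with transcripts of other genes.

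CD300LD, another activating-type member, was barely detected, with 5.02 to 16.0 estimated counts per sample. Its level was 0.152 and 0.317 CPM in LacZ, 0.119 and 0.293 with sg1, and 0.107 and 0.119 with sg5. The sg1 pair spanned almost the same range as the LacZ pair, and the sg5 pair lay below LacZ and beside the lower sg1 sample. Both sg5 samples lay below both LacZ samples in 21.9% of all genes tested. The difference for sg5 was log2 -1.04 ± 0.72 SE with an interval of -2.67 to 0.60 (edgeR adjusted p = 0.737). A change of that size could not be told from none at this depth. Its gene body overlaps C17orf77 on the opposite strand, which had 12.0 to 23.0 counts, and no source used here says whether the counting used strand.

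CD300A, an inhibitory receptor of myeloid and lymphoid cells, was at 23.7 and 19.9 CPM in LacZ, 16.3 and 22.2 with sg1, and 18.8 and 15.1 with sg5. The sg1 samples fell on both sides of LacZ replicate 2, while both sg5 samples were below LacZ. Over all genes tested, 21.9% had both sg5 samples below both LacZ samples. The log2 difference was -0.18 ± 0.19 SE for sg1 (95% interval -0.62 to 0.26, edgeR adjusted p = 0.993) and -0.37 ± 0.19 SE for sg5 (95% interval -0.80 to 0.07, edgeR adjusted p = 0.696). The lower sample of each guide was the one apart on the first component, and without those 2 samples the differences were 0.02 and -0.21.

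CD300LF, the inhibitory receptor with ITIMs that binds lipids, was at 13.3 and 15.2 CPM in LacZ, 13.8 and 17.9 with sg1, and 15.0 and 12.4 with sg5. The 3 groups overlapped. Its log2 difference was 0.15 ± 0.18 SE for sg1 and -0.06 ± 0.18 SE for sg5, with 95% intervals of -0.26 to 0.57 and -0.47 to 0.36 (edgeR adjusted p = 0.993 and 0.951). Joined, the interval was -0.31 to 0.41, which excludes a difference of the size given above for CD300LB. RAB37, a small GTPase gene, overlaps CD300LF on the opposite strand and was at 44.9 and 37.7 CPM in LacZ, 31.5 and 51.4 with sg1, and 58.4 and 23.0 with sg5.

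CD300LG, known from endothelium, was at 0 to 3.01 estimated counts per sample and did not pass the low-count filter. A sample at 0 allows up to 0.0585 CPM in LacZ replicate 1, 0.0647 in sg5 replicate 1 and 0.0573 in sg5 replicate 2, taking 3 counts as the limit for counting error only. Of the endothelial marker genes CDH5 was at or near 0, and VWF was at 1.65 and 0.496 CPM in LacZ and at 0.0989 to 0.469 in the ARID1A-guide samples (joined log2 -1.88, edgeR adjusted p = 0.518). No fold is given for CD300LG.

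**Figure D2:**
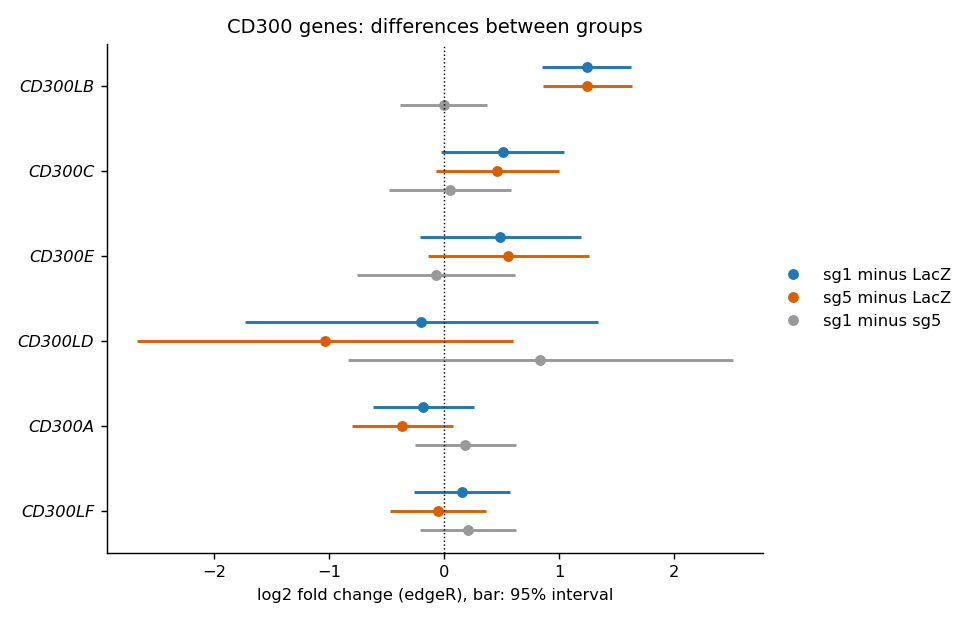
Log2 fold change (horizontal axis) of the 6 tested CD300 genes for sg1 minus LacZ, sg5 minus LacZ and sg1 minus sg5, with points for the edgeR estimate and bars for its 95% interval. The CD300LB estimates against LacZ, given as a description, are both 1.24, and the intervals of the other 5 genes include 0 in all 3 contrasts.

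Levels can be compared between genes only per transcript length, here as summed TPM, an abundance scaled by effective transcript length. In LacZ the order was CD300A at 19.3 ± 1.06 (SD, n = 2), CD300LF at 13.6 ± 0.879, CD300C at 4.87 ± 0.876, CD300LB at 4.79 ± 0.271, CD300E at 0.380 ± 0.0246, CD300LD at 0.261 ± 0.126 and CD300LG at 0.0161 ± 0.0228. CD300C and CD300LB, neighbours in that order, overlapped in their samples, and the other neighbours did not. In sg1 CD300LB was the third of the 7 at 10.6 ± 1.15 TPM, above CD300C at 6.74 ± 1.39 without overlap. In sg5 it was again the third at 11.1 ± 1.62 TPM, and its samples overlapped those of CD300LF, the second, at 13.0 ± 1.93.

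The summed TPM of the family was 43.7 and 42.7 in LacZ, 46.2 and 50.5 with sg1, and 48.0 and 43.9 with sg5. CD300LB made up 10.5% and 11.7% of that sum in LacZ, 24.6% and 19.3% with sg1, and 20.7% and 27.8% with sg5. The total ran from 42.7 to 50.5 over the samples, while the share of CD300LB was higher in each ARID1A-guide sample than in either control. The ratio of CD300LB to CD300A in TPM, an activating against an inhibitory receptor, was 0.230 and 0.269 in LacZ, 0.899 and 0.532 with sg1, and 0.591 and 0.979 with sg5. It was highest in the 2 samples apart on the first component, and the other 2 guide samples were also above LacZ. These shares and ratios contain CD300LB and are descriptions.

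**Figure D3:**
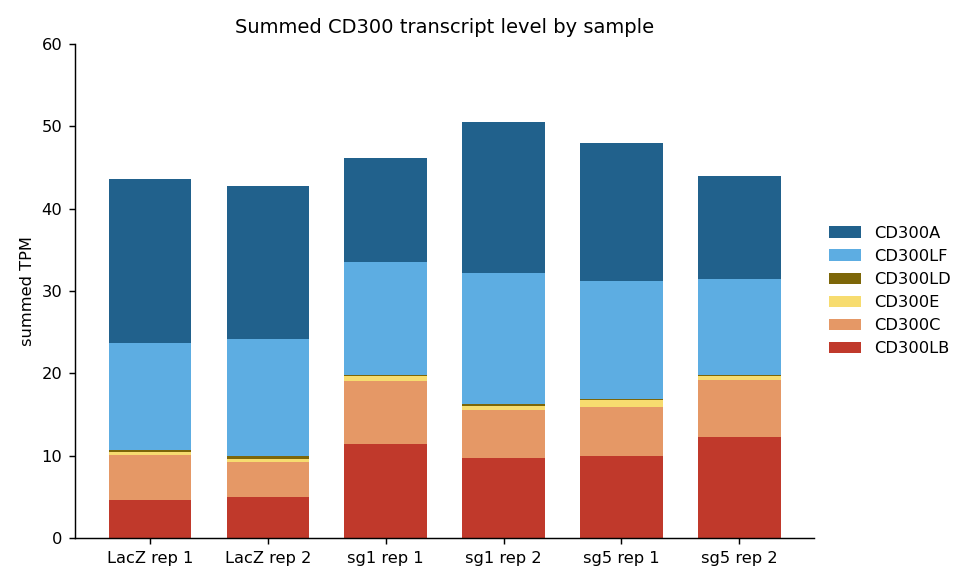
Summed TPM of the CD300 genes by sample, stacked by gene from 0, with CD300LB at the foot and CD300A at the top; CD300LG, at most 0.032 TPM, is not drawn. The whole bars run from 42.7 to 50.5, and the CD300LB segment is 4.60 and 4.98 in LacZ and 9.74 to 12.2 in the ARID1A-guide samples.

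Along the chromosome, the tested genes next to or overlapping the CD300 genes did not pass the edgeR test in a contrast with LacZ. GPRC5C, a receptor gene beyond CD300A, was at 7.67 and 7.22 CPM in LacZ and at 3.96 to 6.59 in the ARID1A-guide samples (joined log2 -0.43 ± 0.21 SE, edgeR adjusted p = 0.738). SLC9A3R1, a scaffold gene at the other end, was at 167.4 and 179.2 CPM in LacZ and at 186.2 to 222.9 in the ARID1A-guide samples (joined log2 0.19 ± 0.11 SE, edgeR adjusted p = 0.744). The noncoding gene AC064805.1 had a joined log2 difference of 0.47 ± 0.36 SE, C17orf77 of -0.43 ± 0.36 SE and RAB37 of -0.01 ± 0.42 SE, and the 3 did not pass either (edgeR adjusted p = 0.781, 0.791 and 0.997). Without sg1 replicate 1 and sg5 replicate 2 the joined log2 difference was -0.23 for GPRC5C, 0.11 for SLC9A3R1, 0.78 for AC064805.1, -0.36 for C17orf77 and 0.40 for RAB37. In that fit the 2 LacZ samples alone give the spread within a group, so only the differences are given. The 2 samples left out held the lowest RAB37 levels, 31.5 CPM in sg1 replicate 1 and 23.0 CPM in sg5 replicate 2. Leaving out a single sample moved AC064805.1 between 0.16 and 0.69. The pseudogene AC079325.1 and the antisense gene AC064805.2 were under the filter, at 0 to 0.079 CPM, and CD300H was not analysed here.

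**Figure D4:**
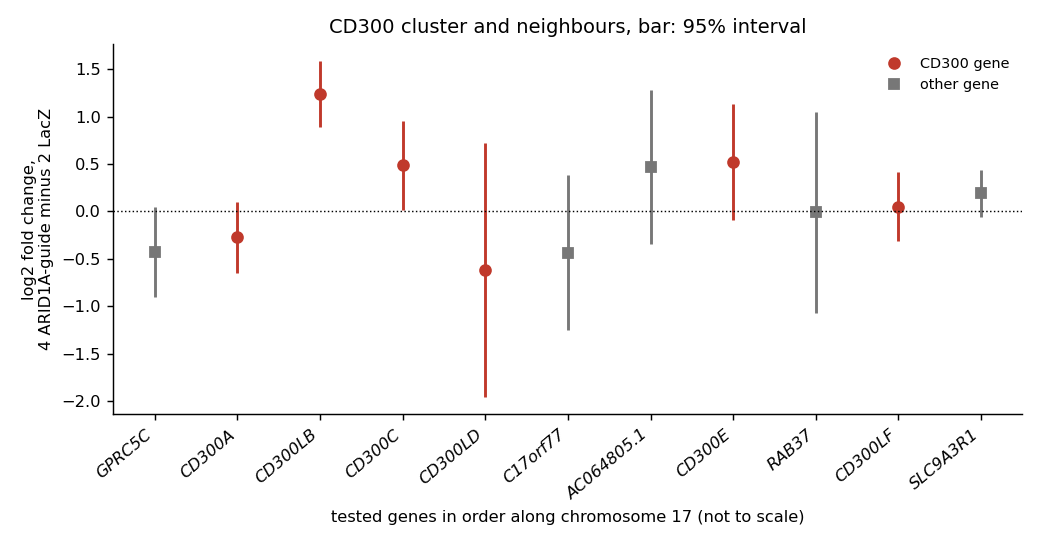
Joined log2 fold change, the 4 ARID1A-guide samples minus the 2 LacZ samples (vertical axis), of the tested genes of the CD300 cluster and its neighbours in their order on chromosome 17, with bars for the 95% interval; circles are CD300 genes and squares other genes. CD300LB stands at 1.24 between CD300A at -0.27 and CD300C at 0.49.

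The partner chains of the activating members were read next, and those tested did not pass in any contrast. TYROBP, the partner of CD300LB and CD300E, was at 19.3 and 16.7 CPM in LacZ and 14.2 to 20.7 in the ARID1A-guide samples. HCST was at 9.83 to 13.4 CPM over all samples, and FCER1G, the partner of CD300C, at 20.9 to 26.6. Their joined log2 differences were -0.13, -0.09 and -0.07, and HCST and FCER1G overlapped between the groups. For TYROBP the sg1 samples overlapped LacZ, and both sg5 samples, at 16.5 and 14.2 CPM, were below it (edgeR adjusted p = 0.779). Of all genes tested, 21.9% had both sg5 samples below LacZ. CD247 was near 0, at 0.019 to 0.159 CPM, and was not tested.

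Of the signaling molecules, SYK, the kinase that binds phosphorylated ITAMs, was at 321.8 to 382.6 CPM, and GRB2, the adaptor, at 228.7 to 296.2. PTPN6 and PTPN11, the phosphatases recruited by ITIMs, and INPP5D, a lipid phosphatase, were at 226.5 to 288.9, 284 to 337.8 and 45.5 to 54.6 CPM. The joined log2 differences of these 5 genes lay between -0.03 and 0.14, and none of them passed the test in any contrast. SYK's interval was -0.20 to 0.34 and that of TYROBP -0.52 to 0.26.

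Genes around the family were read from 9 lists of adapters, ITAM and GRB2 signaling, ITIM phosphatases, relatives of PIGR and TREM, LILR and LAIR, SIRP, PILR and CD200R, Siglec receptors, other phosphatidylserine receptors, and the lipopolysaccharide receptor complex. They held 105 genes, of which 89 were tested. By edgeR 0 of the 89 were called in any of the 4 contrasts, and 11, 19, 20 and 0 had an unadjusted p under 0.05 for sg1, sg5, joined and sg1 against sg5. Over all 18514 genes tested the same counts were 769, 1383, 1334 and 256, which was 4.15%, 7.47%, 7.21% and 1.38%. DESeq2 called 1, 3, 3 and 0 of the list genes, beside 0.742%, 1.35%, 1.81% and 0.027% of all genes. The median joined log2 difference was -0.07 over the 89 genes and -0.01 over all genes.

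The genes DESeq2 called, named here after their values were seen, were LILRA2, FGR and ADGRB1. LILRA2, an activating receptor that pairs with FCER1G, was at 45.2 and 43.7 CPM in LacZ, 67.7 and 67.1 with sg1, and 76.4 and 56.2 with sg5, and it was called higher for each guide and joined (DESeq2 joined log2 0.59 ± 0.15 SE, adjusted p = 0.0104). LILR genes are close copies of one another, so their counts are uncertain. FGR, a SRC-family kinase, was at 7.59 and 7.20 CPM in LacZ and at 2.91 to 4.60 in the ARID1A-guide samples (DESeq2 joined log2 -0.91 ± 0.24 SE, adjusted p = 0.0151). ADGRB1, a phosphatidylserine receptor, was at 85.8 and 83.9 CPM in LacZ and at 54.1 to 72.3 in the ARID1A-guide samples (DESeq2 joined log2 -0.41 ± 0.13 SE, adjusted p = 0.0753). By edgeR the joined adjusted p was 0.28 for LILRA2, 0.30 for FGR and 0.35 for ADGRB1.

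By list, the LILR and LAIR receptors, which resemble the CD300 family in having activating and inhibitory members, had a median joined log2 difference of 0.36 over 8 tested genes, 5 of them positive. The lipopolysaccharide receptor complex had a median of 0.21 over 7. TLR4, the receptor that CD300LB has been linked to, was at 25.7 and 21.6 CPM in LacZ and at 25.8 to 34.8 in the ARID1A-guide samples (edgeR joined adjusted p = 0.71), and its co-receptor CD14 was low throughout, at 0.20 to 0.91 CPM. The other phosphatidylserine receptors and bridges had a median of -0.32 over 11, the relatives of PIGR and TREM -0.42 over 4, the Siglec receptors -0.19 over 12, and the SIRP, PILR and CD200R receptors -0.09 over 9. For the adapters, the ITAM and GRB2 signaling list and the ITIM phosphatases the medians were -0.09 over 3, 0.01 over 28 and -0.06 over 7.

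Marker genes of other cells were read for the same samples. The marker lists were chosen with earlier results of these data known, so calls and p-values for them are descriptions. Of the 12 eosinophil, basophil and mast cell markers, 9 were tested. By edgeR 2 fell for sg1 and 3 fell for sg5 and joined, where 0.027%, 0.0648% and 0.124% of all genes tested fell. DESeq2 called 3, 4 and 4, beside 0.742%, 1.35% and 1.81% of all genes. Of the 9, 1 had a positive joined log2 difference, CCR3 at 0.43 (edgeR adjusted p = 0.830). The summed level of the list was 101.4 to 107.4 CPM in LacZ, 38.0 to 42.1 in sg1 and 37.1 to 39.5 in sg5. PRG2, the eosinophil major basic protein gene, was at 62.9 and 71.8 CPM in LacZ and at 20.5 to 26.1 in the ARID1A-guide samples (joined log2 -1.55 ± 0.12 SE, edgeR adjusted p = 0.00634). HDC, the histamine-synthesizing enzyme gene, and EPX, the eosinophil peroxidase gene, fell by 1.26 and 1.86 on the joined log2 scale (edgeR adjusted p = 0.0182 for both). In the erythroid and megakaryocyte list, 1 of 8 genes was tested, ITGA2B, and it fell by 2.10 joined (edgeR adjusted p = 0.00717), while GP9, HBA1, HBB and PF4 were at 0 in all samples. PRG2, HDC, EPX and ITGA2B moved with the groups as CD300LB did, in the other direction, and their part in its difference was not tested.

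Monocyte and macrophage markers, the cells in which CD300LB and CD300E are best known, summed to 91.2 to 102.9 CPM in LacZ, 87.6 to 111.3 in sg1 and 82.9 to 97.6 in sg5 over 8 of the 9 genes, and 0 of the 7 tested were called by edgeR or DESeq2, with 1 at an unadjusted p under 0.05 for sg1 and joined and 0 for sg5. CD14, VCAN and CD163 were near 0, at no more than 0.91 CPM. The mature neutrophil markers summed to 366.7 to 460.9 CPM in LacZ, 188.4 to 288 in sg1 and 158.5 to 200.2 in sg5, most of it MMP9. Of the 8 genes 3 were tested, MMP9, CXCR2 and MMP8, and all 4 ARID1A-guide samples were below both LacZ samples in each. Over all genes tested 10.4% were lower in the same way, and MMP8 was near 0, at 0.040 to 0.399 CPM. By edgeR 0 of the 3 neutrophil markers were called, with 1 at an unadjusted p under 0.05 in each contrast with LacZ. DESeq2 called 1, MMP9, in each. Its level was 453.7 and 360.2 CPM in LacZ, 283.3 and 182.5 with sg1, and 194.2 and 153.4 with sg5 (edgeR joined log2 -1.02, adjusted p = 0.141). FCGR3B and ALPL were at 0 in every sample. Of the promyelocyte markers 7 of 8 were tested and 0 were called by edgeR, with 2 at an unadjusted p under 0.05 in each contrast with LacZ. For sg5 and joined, DESeq2 called 2, AZU1 and CTSG, both lower in the ARID1A-guide samples. Of the 7, 0 had a positive joined log2 difference. In 4 of them all ARID1A-guide samples were below both LacZ samples, beside the 10.4% of all genes tested. Of the lymphocyte and endothelium markers 4 of 8 were tested and 0 were called by either tool, with 1 at an unadjusted p under 0.05 in each contrast with LacZ.

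The genes whose pattern was most like that of CD300LB were found by the Euclidean distance between log2 CPM profiles, each centred on its mean over the 6 samples. The nearest were the noncoding gene AC126177.4 at a distance of 0.202, HUNK at 0.364, MS4A14 at 0.392, SLPI at 0.397 and GPR183 at 0.408, against a median of 1.55 over 18513 genes. SLPI, a secreted protease inhibitor, was at 17.9 and 16.9 CPM in LacZ, 59.9 and 37.8 with sg1, and 44.5 and 50.5 with sg5. HUNK, a kinase gene, was at 3.38 and 2.74 CPM in LacZ and at 6.01 to 8.09 in the ARID1A-guide samples. MS4A14, a membrane protein gene, was at 1.27 and 1.23 CPM in LacZ and at 2.43 to 2.79 in the ARID1A-guide samples.

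GPR183, an oxysterol receptor that guides leukocyte migration, was at 4.10 and 3.25 CPM in LacZ and at 6.53 to 9.69 in the ARID1A-guide samples. AC126177.4 was at 0.114 and 0.119 CPM in LacZ and at 0.256 to 0.356 in the others, so its place at the head of the order rests on very few counts. All 5 were higher in each ARID1A-guide sample than in either LacZ sample, which the way they were found makes likely, and no test is given for them. Among the family, CD300C was the nearest at 0.93, CD300E the next at 1.01 and CD300LF the third at 1.51, under the median over genes. CD300A at 1.88 and CD300LD at 2.34 were above it.

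**Figure D5:**
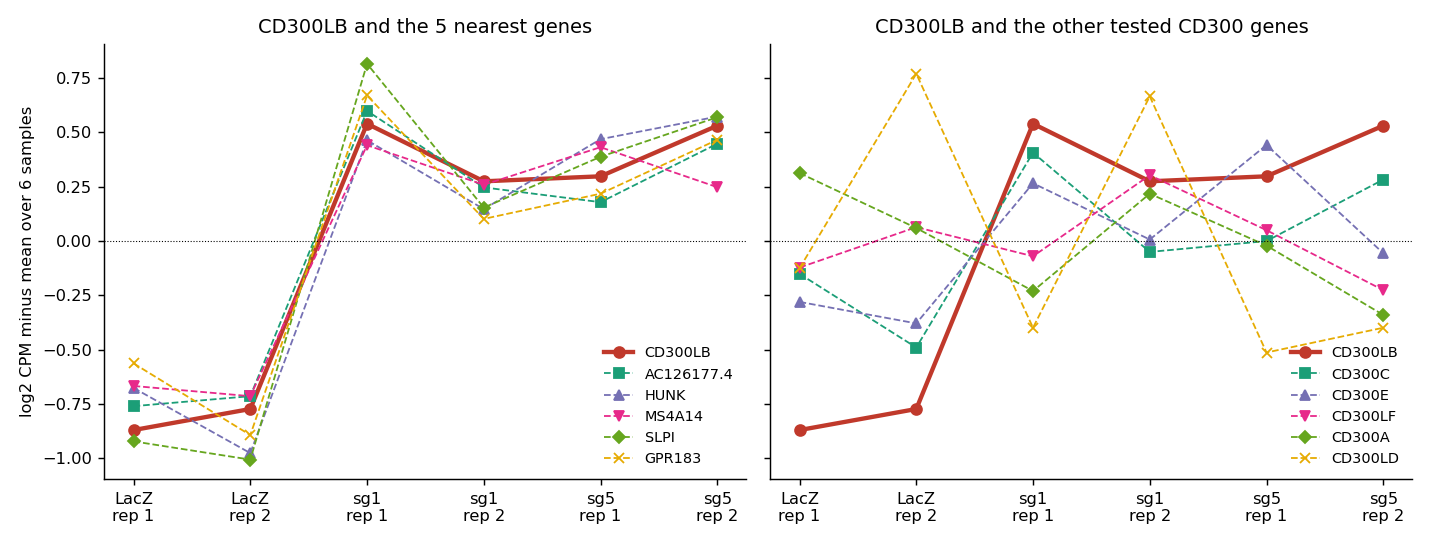
Log2 CPM minus the mean over the 6 samples (vertical axis) by sample, for CD300LB as a thick line with its 5 nearest genes on the left and with the 5 other tested CD300 genes on the right; the lines join samples only to guide the eye. On the left all profiles step up between LacZ and the ARID1A-guide samples. On the right CD300C and CD300E also lie above LacZ in each ARID1A-guide sample, at a smaller range, while CD300A, CD300LF and CD300LD do not. Within sg5 CD300E was at 0.442 in replicate 1 and -0.056 in replicate 2, the reverse of the CD300LB order (0.298 and 0.531).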

How the data were processed

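RNA was sequenced from 6 NB4 samples in 3 groups of 2, prepared with a TruSeq kit. The authors quantified transcripts, per the labels with kallisto, and the deposited tables hold estimated counts and TPM per transcript. The labels name hg19, and the transcript release and strand setting are not given in the sources used here. Identifiers of 181857 of 196354 transcripts (92.6%) matched GENCODE 29 (GRCh38), the source of all coordinates, and held 95.4% to 95.5% of each sample's counts (46131178 to 54843745). The rest were left out. Reads without molecular identifiers make limits cover counting error only.

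Gene counts were sums over matched transcripts (52992 genes), rounded to whole numbers. All 6 samples entered 1 edgeR (4.0.16, R 4.3.3) quasi-likelihood fit with TMM factors, filterByExpr (minimum count 10), robust estimation and group as the only term, with Benjamini-Hochberg adjustment and an FDR of 0.1. DESeq2 (1.42.0), the study's tool, was an alternative, besides other scaling, filter, block, length offset, sample and threshold choices. Standard errors came from the F statistic, intervals are 95%, and log2 CPM used a prior count of 2. The fits were tested on simulated data. Contrasts with LacZ share their controls.

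The members and lists were chosen with earlier results of these data known. Named were the 7 members, ARID1A, genes next to or overlapping them, the 5 nearest profiles, 8 adapters and effectors, and up to 4 genes called per list. DESeq2 gave no adjusted p for CD300LD against LacZ. Figures used matplotlib (3.10.9).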

Additional observations from a re-analysis of the deposited data

Results flagged for a closer look

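Among the 4 ARID1A-guide samples, 2 of 29 named genes had a sample far from the other 3, judged by its gap to the nearest of them over the whole range, where chance gives about 1 in 20. CD300LD was at 0.293 CPM in sg1 replicate 2 and at 0.107 to 0.119 CPM in the other 3, and the gap was 0.935 of the range. These values stand for 13.0 estimated counts against 5.02 to 6.02. HDC was at 7.80 CPM in sg5 replicate 1 and at 8.74 to 8.89 CPM in the other 3, and the gap was 0.864 of the range. All 4 HDC values were below the 20.3 and 20.7 CPM of LacZ.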

How the results depend on the processing

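CD300LB kept a positive log2 difference from LacZ under every alternative run, between 1.09 and 1.37. The number of genes called moved more. For sg1, sg5, joined and sg1 against sg5 it was 7, 18, 31 and 1. DESeq2 gave 116, 201, 264 and 5, no low-count filter 345, 632, 701 and 86, and an FDR of 0.05 left 12 joined and 0 for sg1 against sg5. Fitting only the groups compared gave 18, 29 and 0 without the joined contrast, and the length offset gave 2 for sg1 against sg5. The count of members called, CD300LB alone, was 1 for sg1 with DESeq2, without the filter and with only the groups compared, and 0 for sg5 with the length offset and at an FDR of 0.05. DESeq2 called 1 LILR and LAIR gene in each contrast with LacZ, and 1 ITAM and GRB2 gene and 1 phosphatidylserine receptor gene for sg5 and joined. The causes were not tested.

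Samples with the same replicate number did not deviate together (correlations 0.072, 0.012 and -0.206 over 18514 genes). Pairing by number is not shown by these values, and 2 samples a group cannot exclude it. With the replicate block 1, 1, 3 and 0 genes and 0 members were called in the 4 contrasts. With sg5 crossed, a pairing added after the data were seen, 59, 157, 194 and 2 genes and 1, 1, 1 and 0 members were called.

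Leaving out each sample in turn gave 0 to 25, 0 to 54, 1 to 155 and 0 to 7 genes in the 4 contrasts, and 0 to 1 members in each contrast with LacZ. Where an arm then held 1 sample, it was assumed to vary like the others. CD300LB for sg1 against sg5 ranged from -0.14 to 0.12. Differences that changed sign ranged from -0.04 to 0.33, -0.19 to 0.08 and -0.05 to 0.15 for CD300LF (sg1, sg5, joined), from -0.42 to 0.03 and -0.06 to 0.39 for CD300A (sg1, sg1 against sg5), and from -0.20 to 0.26, -0.30 to 0.19 and -0.96 to 0.41 for CD300C and CD300E (sg1 against sg5) and CD300LD (sg1). Joined, they were -0.21 to 0.09 for ARID1A, -0.42 to 0.25 for RAB37, -0.22 to 0.06 for HCST, -0.15 to 0.02 for FCER1G and -0.13 to 0.07 for INPP5D. Leaving out sg1 replicate 1 and sg5 replicate 2, added after the data were seen, turned CD300LF for sg5 to 0.08, CD300A for sg1 to 0.02, CD300C for sg1 against sg5 to -0.06, CD300LD for sg1 to 0.31, and joined RAB37 to 0.40, GRB2 to -0.01, PTPN11 to 0.00 and INPP5D to 0.02. None of these had passed with all samples. The rank of each member in LacZ was the same in CPM per kilobase, and CD300LB-202 held 87.7% of the gene's TPM. Depth limits CD300LD and CD300LG, and 2 samples a group limit the rest.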
